A study of Mus musculus with 5 samples.

Results

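Interleukins are secreted cytokines through which leukocytes, epithelia and stromal cells signal to each other, and they act on receptors made of a cytokine-specific chain paired with a shared chain. Gene names beginning with Il followed by a digit were used to pick out this group: of 24768 loci in the deposited expression table, 85 carried such a name, 42 of them receptor chains and 43 ligands, inhibitors or other genes that bear an Il symbol. The loci were compared between eye tumors deficient in the Hippo pathway kinases Lats1 and Lats2 and normal uvea, the pigmented layer of the eye formed by iris, ciliary body and choroid. In receptors of the IL-2, IL-6, IL-10 and IL-12 families the bound cytokine activates JAK kinases and STAT transcription factors, whereas receptors of the IL-1 and IL-17 families recruit adaptor proteins that lead to NF-kappaB. The eye is a tissue in which inflammation is normally restrained, and interleukins of the IL-1, IL-6 and IL-17 families are known from inflammation of the uvea.

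The tumor group (3 libraries) came from adult mice of genotype AAV5-Cre;Lats1/2 fl/fl, in which an adeno-associated virus delivers Cre recombinase to cells with floxed Lats1 and Lats2 alleles, and the series title calls the tumors uveal melanoma. The wild-type group (2 libraries) was uvea of adult wild-type mice. The promoter that drives Cre is not given in the sources used here, and the labels mention no virus or floxed allele for the wild-type mice, so mutation, viral delivery and tumor growth cannot be told apart. The labels do not state that each library is a different animal. The p-values therefore measure the spread between these samples, which may be technical.

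Named loci held 13144595, 12439175 and 14149789 estimated fragments in tumor libraries 1, 2 and 3, against 13525240 and 12434957 in wild-type libraries 1 and 2. All per-library values below follow that order. Levels are in FPKM, fragment counts scaled for transcript length and library size. A list of 6 melanocyte and pigment genes summed to 15.4, 29.9 and 8.88 FPKM in tumors, against 6616 and 6391 FPKM in wild type. The tumors as sampled thus held few transcripts of Tyr, Tyrp1, Dct, Pmel and Mlana relative to wild type. Mitf, also on the list, was lower but kept 3.83, 3.16 and 4.53 FPKM in tumors, against 22.0 and 21.7 FPKM in wild type. Retinal pigment epithelium genes summed to 10190 and 10030 FPKM in wild type, so the pigment sum there may not come from uvea alone. Photoreceptor genes, which do not belong to the uvea, summed to 1.17, 2.09 and 4.42 FPKM in tumors and to 994 and 1079 FPKM in wild type, so wild-type samples also held transcripts of the retina. In such bulk samples fewer cells of a type and less RNA per cell cannot be told apart.

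More interleukin and receptor loci were higher than lower in the tumors. Of the 85 loci, 51 passed the filter on low counts and were tested. Among these, 23 rose and 5 fell in tumors at an adjusted p under 0.05 (edgeR quasi-likelihood test with Benjamini-Hochberg adjustment over all 15241 tested loci), and 23 did not pass. The share that rose was 45.1%, against 18.7% of all tested loci. The share that fell was 9.80%, against 15.4% of all. The median log2 fold change of tumor over wild type was 1.67 over the tested interleukin loci and 0.05 over all tested loci. FPKM values of the groups did not overlap at 39 of the 51 loci (30 with all tumors above, 9 with all tumors below), or 76.5%, against 69.5% of all tested loci (33.7% above, 35.9% below).

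Receptors made up most of the tested interleukin loci and most of those that passed. Of 42 receptor loci, 33 were tested, 17 rose and 3 fell. Of the 43 other loci, 18 were tested, 6 rose and 2 fell. Of all tested loci, 18.7% rose and 15.4% fell. Whether receptors differ from the other loci was not tested. Receptor levels added up to 349, 367 and 536 FPKM in tumors, against 279 and 282 FPKM in wild type, and ligands with the remaining loci to 153, 203 and 194 FPKM in tumors, against 105 and 101 FPKM in wild type. A mean of at least 10 FPKM was reached by 19 loci in tumors and by 8 in wild type.

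The counts rest on both wild-type libraries. Without either of them edgeR called 0 rises and 0 falls among interleukin loci (0.00% of all loci), with 25 and 24 interleukin loci at an unadjusted p under 0.05, whereas DESeq2 on the same libraries called 20 and 19 rises (10.6% and 10.3% of all loci) and 2 and 2 falls (7.61% and 7.66%). With all libraries DESeq2 called 29 rises and 5 falls (24.2% and 21.5% of all loci), and limma on log2(FPKM + 1) called 19 rises and 5 falls (17.3% and 20.3%). Without tumor library 1, 2 or 3 in turn, edgeR called 24, 25 and 23 rises (15.9%, 20.1% and 18.7% of all loci) and 4, 5 and 4 falls (13.7%, 20.7% and 16.6%).

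**Figure D1:**
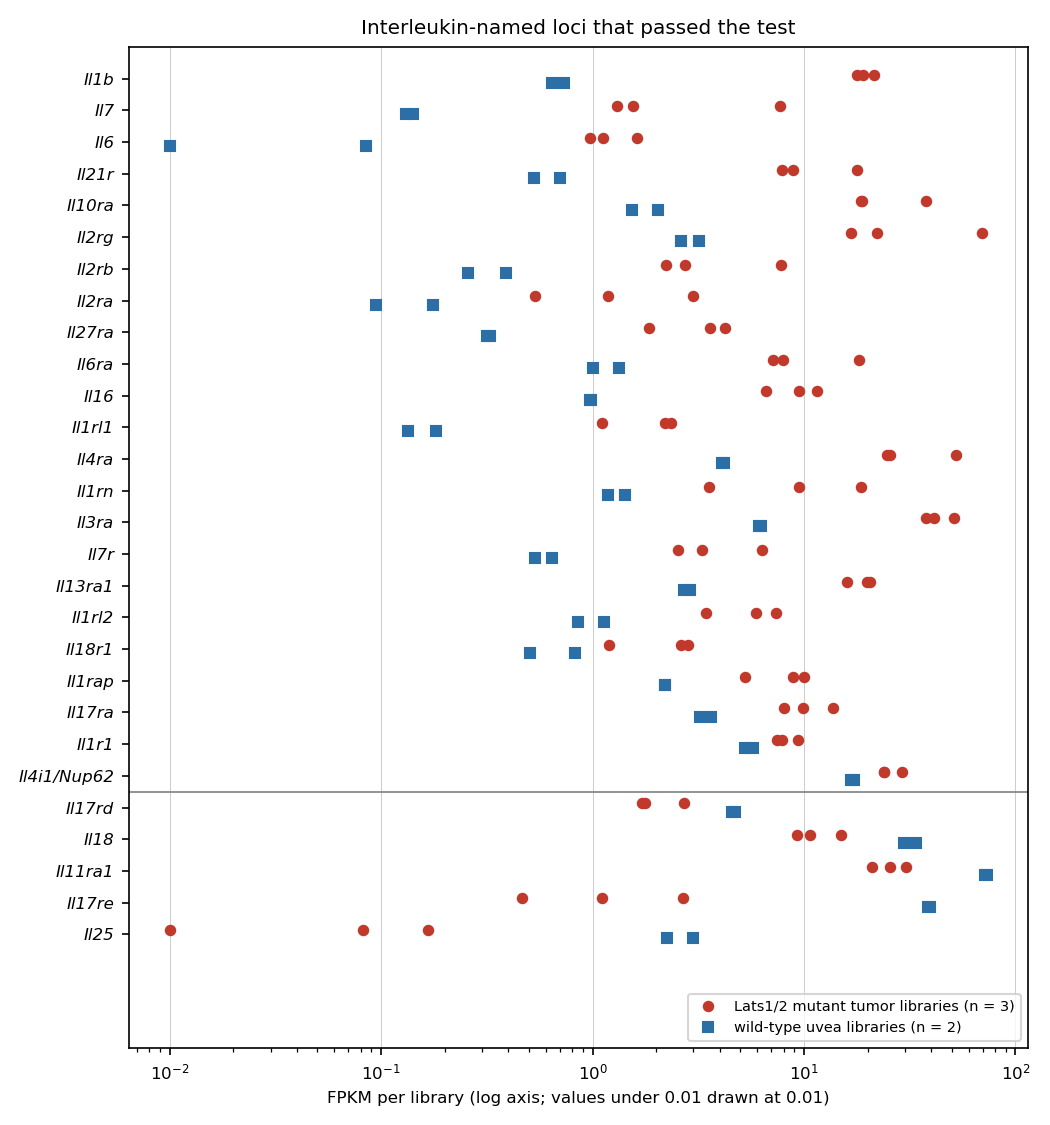
FPKM in each library (log axis) of the 28 interleukin-named loci that passed the test, with tumor libraries as red circles and wild-type libraries as blue squares, ordered by log2 fold change with rises above the line and falls below it; an FPKM under 0.01 is drawn at 0.01. These loci were picked by the test on the same libraries, and the groups overlap at none of them (69.5% of all tested loci do not overlap). The loci that rose include some that were under 1 FPKM in both wild-type libraries, such as Il1b and Il21r.

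**Figure D2:**
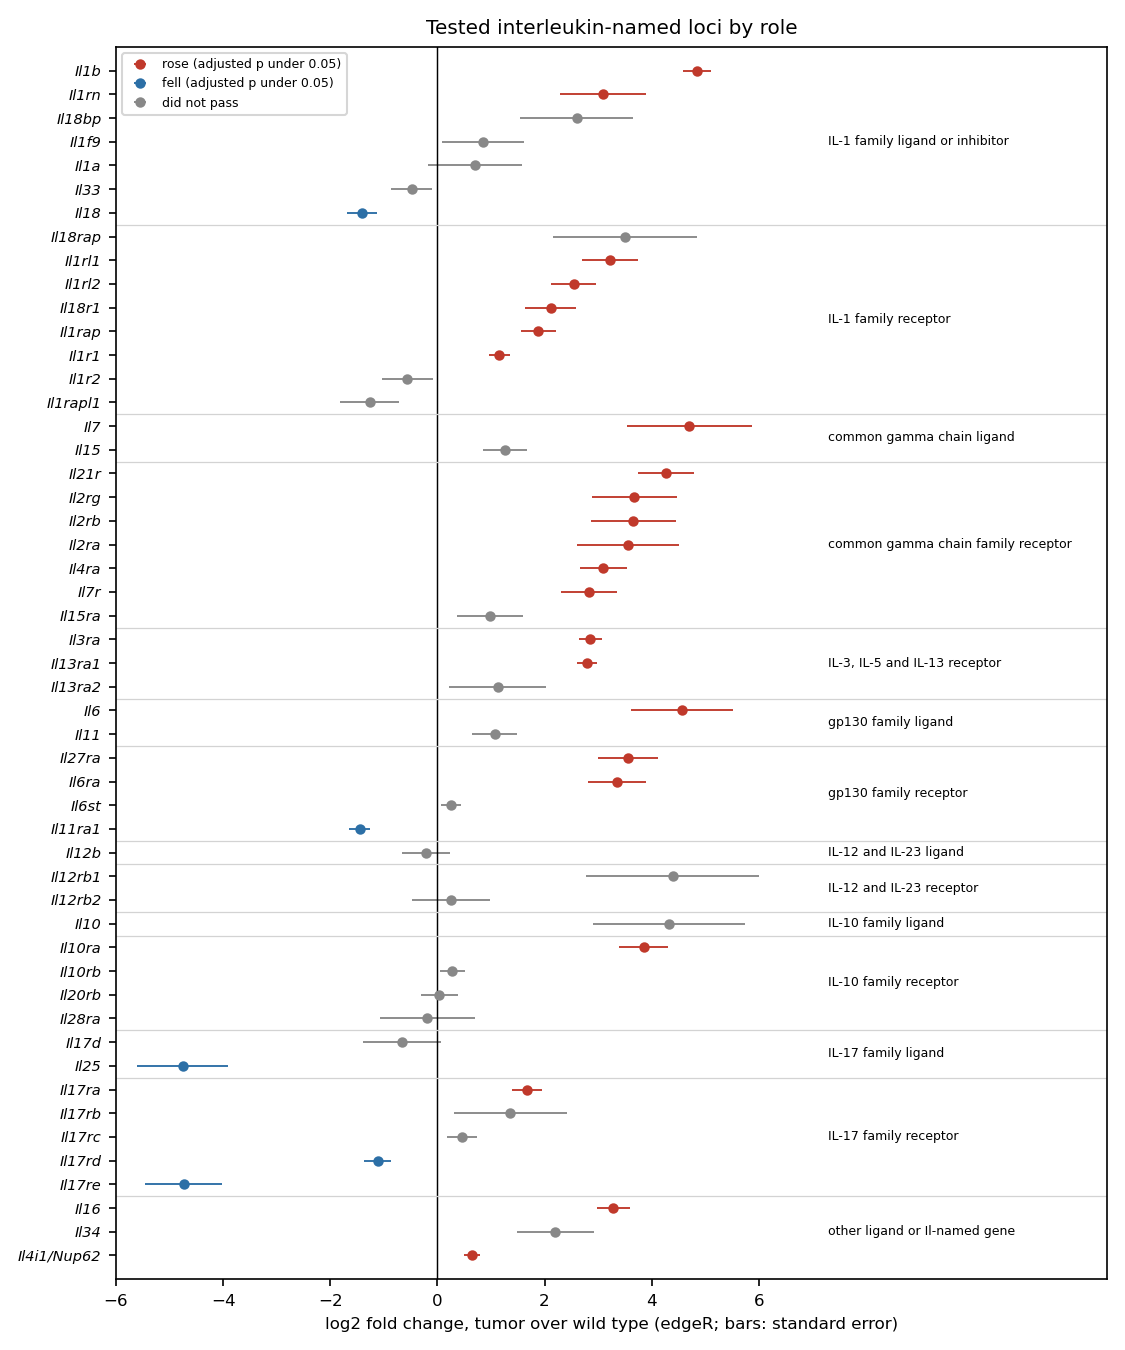
Log2 fold change of tumor over wild type (edgeR) with its standard error for the 51 tested loci, grouped by role; red points rose, blue points fell and grey points did not pass. In the common gamma chain receptor group 6 of 7 loci rose, whereas the IL-17 receptor group holds loci on both sides of 0.

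Among ligands and inhibitors of the IL-1 family, Il1b and the antagonist Il1rn rose and Il18 fell. Il1b encodes interleukin-1 beta, an inflammatory cytokine made as an inactive precursor chiefly by myeloid cells. It stood at 21.4, 18.9 and 17.8 FPKM in the tumor libraries, against 0.730 and 0.644 FPKM in wild type. The means were 19.4 ± 1.87 FPKM in tumors (SD, n = 3) and 0.687 ± 0.0609 FPKM in wild type (SD, n = 2). All tumors lay far above both wild-type libraries and close to each other, and the log2 fold change, 4.85 (SE 0.27, adjusted p = 0.00295), was the highest among the tested interleukin loci. The predicted gene Gm14047 overlaps Il1b, and their reads cannot be told apart without strand.

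Il6 encodes a cytokine of acute inflammation and is described here with Il1b because both ligands rose and their promoters can be set side by side. It had 14, 12 and 19 fragments in tumors, against 1 and 0 in wild type, which is 1.12, 0.971 and 1.62 FPKM against 0.0845 and 0 FPKM. The counts are small, and the ratio of library-scaled fragments was 29.0 with a 95% interval of 4.94 to 1170, which covers counting error only. The log2 fold change of Il6 was 4.57 (SE 0.96, adjusted p = 0.0246), and 6.88 or 3.71 without wild-type library 1 or 2. The 250 bases before the RefSeq starts of both genes (build GRCm38.p6) are printed 5′ to 3′ on each gene's strand, with matches to the searched motifs in capitals. The Il1b window, chr2:129371140-129371389 on the minus strand, holds a C/EBP match that begins 91 bases before the start. The Il6 window, chr5:30012864-30013113 on the plus strand, holds an AP-1 match at 249 bases, a C/EBP match at 128 bases and overlapping kappaB matches at 44 and 43 bases before the start.
Il1b: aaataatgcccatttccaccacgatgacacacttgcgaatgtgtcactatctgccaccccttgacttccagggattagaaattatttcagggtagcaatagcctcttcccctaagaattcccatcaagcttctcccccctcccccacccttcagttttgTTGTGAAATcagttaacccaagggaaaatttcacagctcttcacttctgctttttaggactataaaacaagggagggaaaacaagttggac
Il6: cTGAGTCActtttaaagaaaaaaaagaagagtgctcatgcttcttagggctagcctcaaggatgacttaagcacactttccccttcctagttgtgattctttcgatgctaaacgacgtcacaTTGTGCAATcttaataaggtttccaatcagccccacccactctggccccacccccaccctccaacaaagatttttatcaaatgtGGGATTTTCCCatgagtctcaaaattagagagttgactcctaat

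Il1rn encodes the IL-1 receptor antagonist, which occupies the receptor without signalling. Its levels were 3.54, 18.5 and 9.45 FPKM in tumors, against 1.42 and 1.18 FPKM in wild type. Tumors were all higher but spread over 5.24-fold, and the log2 fold change was 3.09 (SE 0.80, adjusted p = 0.0405). The log2 fold change was 2.34 without tumor library 2, and the call was lost without tumor library 3 (adjusted p = 0.0654) and with limma on log2(FPKM + 1) (adjusted p = 0.0529).

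Il18, whose product is a precursor cytokine cut by caspase-1, was at 9.28, 10.7 and 14.97 FPKM in tumors and at 33.75 and 29.55 FPKM in wild type. Every tumor was lower than both wild-type libraries, and Il18 fell by 1.41 on the log2 scale (SE 0.28, adjusted p = 0.0224). Its locus span includes Bco2 and Tex12. The gene of its soluble inhibitor, Il18bp, had 8.69, 9.83 and 58.9 FPKM in tumors, against 4.54 and 4.23 FPKM in wild type. Tumor library 3 alone was far above the rest, and the log2 fold change, 2.60 (SE 1.05), was short of the threshold (adjusted p = 0.114). Il18bp passed with DESeq2 (2.57, adjusted p = 0.0191) and, with a smaller change, without tumor library 3 (1.12, adjusted p = 0.0274). Il33, a nuclear cytokine released from damaged cells, had 17.7, 19.2 and 8.24 FPKM in tumors and 22.3 and 21.3 FPKM in wild type, a log2 difference of -0.48 (SE 0.39) that did not pass (adjusted p = 0.368). The remaining tested ligands, Il1a and the IL-36 gene Il1f9, overlapped between the groups and did not pass.

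Receptor chains of the IL-1 family rose at 5 of 8 tested loci. Of these, 4 belong to a cluster of 6 receptor genes on chromosome 1 (mm10, positions 40076212 to 40549297) that spans 473 kb, in the order Il1r2, Il1r1, Il1rl2, Il1rl1, Il18r1 and Il18rap. None of the cluster fell. Il1rl1 encodes ST2, the receptor of IL-33, and had 2.35, 1.10 and 2.196 FPKM in tumors, against 0.134 and 0.181 FPKM in wild type (log2 fold change 3.23, SE 0.52, adjusted p = 0.0143). Il1rl2, the receptor of IL-36 cytokines, had 3.44, 5.91 and 7.37 FPKM in tumors, against 0.849 and 1.14 FPKM in wild type (log2 fold change 2.54, SE 0.43, adjusted p = 0.0155). At both loci the lowest tumor was above the higher wild-type library.

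Il18r1, the ligand-binding chain of the IL-18 receptor, was at 1.20, 2.82 and 2.63 FPKM in tumors and at 0.830 and 0.506 FPKM in wild type (log2 fold change 2.11, SE 0.48, adjusted p = 0.0297). Il1r1, the signalling receptor of IL-1, had 465, 606 and 434 fragments in tumors, against 219 and 216 in wild type (log2 fold change 1.15, SE 0.20, adjusted p = 0.0159). In FPKM the gap at Il1r1 was narrower, 7.46, 9.37 and 7.86 in tumors against 5.24 and 5.75 in wild type. FPKM also divides by an estimated transcript length, and the part of that length in the narrower gap was not tested. Both Il18r1 and Il1r1 lost the call with limma on log2(FPKM + 1), at adjusted p = 0.0638 and 0.0717. The shared co-receptor chain Il1rap lies on chromosome 16, outside the cluster, and was at 5.26, 9.96 and 8.87 FPKM in tumors, against 2.203 and 2.205 FPKM in wild type (log2 fold change 1.89, SE 0.33, adjusted p = 0.0170). The other cluster genes did not pass. The decoy receptor Il1r2 overlapped between the groups at 1.48, 2.13 and 1.65 FPKM in tumors and 1.70 and 3.67 FPKM in wild type.

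**Figure D3:**
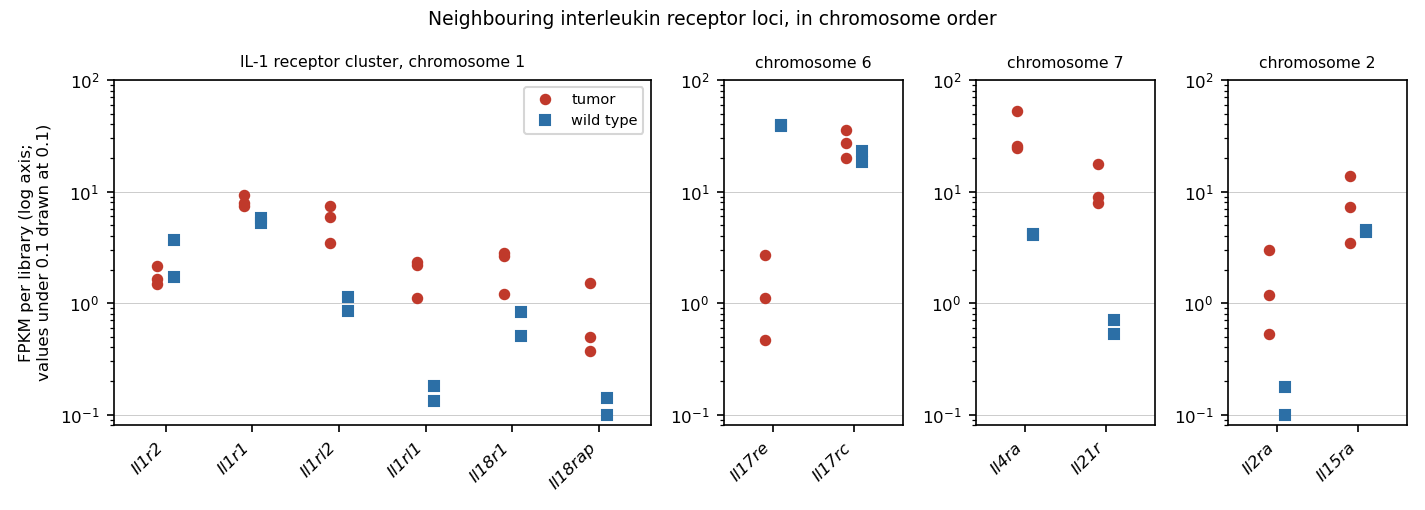
FPKM in each library (log axis, values under 0.1 drawn at 0.1) of neighbouring interleukin receptor loci in chromosome order, tumors in red and wild type in blue: the IL-1 receptor cluster, Il17re with Il17rc, Il4ra with Il21r, and Il2ra with Il15ra. Il4ra and Il21r are both higher in every tumor, whereas Il17re is lower in every tumor and its neighbour Il17rc overlaps between the groups.

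Cytokines of the common gamma chain family (IL-2, IL-4, IL-7, IL-9, IL-15 and IL-21) sustain lymphocytes, and their receptors rose at 6 of 7 tested loci. Il2rg, the shared gamma chain itself, had 22.1, 16.7 and 69.4 FPKM in tumors and 3.18 and 2.62 FPKM in wild type (log2 fold change 3.68, SE 0.80, adjusted p = 0.0268). Il4ra, which binds IL-4 and pairs either with the gamma chain or with Il13ra1, had 25.5, 24.6 and 52.2 FPKM in tumors, against 4.08 and 4.20 FPKM in wild type (log2 fold change 3.10, SE 0.44, adjusted p = 0.0110). Il21r, the IL-21 receptor, lies 24.0 kb from Il4ra on chromosome 7 and had 8.88, 7.91 and 17.8 FPKM in tumors, against 0.526 and 0.701 FPKM in wild type (log2 fold change 4.28, SE 0.52, adjusted p = 0.00833). At these loci tumor library 3 was the highest, and no tumor came near the wild-type range. Without tumor library 3 the log2 fold change was 2.78 for Il2rg and 2.85 for Il2rb.

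Il2rb, a chain shared by the receptors of IL-2 and IL-15, was at 2.22, 2.75 and 7.77 FPKM in tumors and 0.388 and 0.258 FPKM in wild type (log2 fold change 3.66, SE 0.79, adjusted p = 0.0267). Il7r, the IL-7 receptor chain of lymphocytes, was at 2.55, 3.29 and 6.36 FPKM in tumors and 0.643 and 0.534 FPKM in wild type (log2 fold change 2.83, SE 0.53, adjusted p = 0.0193). Il2ra, which gives the IL-2 receptor its high affinity, was at 0.532, 2.98 and 1.19 FPKM in tumors and 0.176 and 0.0949 FPKM in wild type (log2 fold change 3.55, SE 0.95, adjusted p = 0.0439). Here tumor library 2 was the highest, the log2 fold change without it was 2.64, and the call was lost without tumor library 3 (adjusted p = 0.0623) and with limma on log2(FPKM + 1) (adjusted p = 0.102). Il15ra, which presents IL-15 to neighbouring cells, lies 12.1 kb from Il2ra and overlapped between the groups, at 7.27, 3.44 and 13.8 FPKM in tumors and 4.38 and 4.51 FPKM in wild type (log2 fold change 0.98, SE 0.62, adjusted p = 0.264).

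The ligands of these receptors were less uniform. Il7, a survival factor for lymphocytes made by stromal cells, had 1.30, 7.72 and 1.55 FPKM in tumors and 0.131 and 0.141 FPKM in wild type. Tumor library 2 stood 5.94-fold above the lowest tumor, and the log2 fold change was 4.70 (SE 1.16, adjusted p = 0.0366). Without tumor library 2 the log2 fold change of Il7 was 3.36, and the call was lost with limma on log2(FPKM + 1) (adjusted p = 0.0876). Il15, which sustains NK cells and memory T cells, had 6.495, 4.87 and 7.87 FPKM in tumors and 2.21 and 3.23 FPKM in wild type. All tumors were higher, but the log2 fold change, 1.26 (SE 0.41), was short of the threshold (adjusted p = 0.0678), whereas it passed with DESeq2 (1.23, adjusted p = 0.0296). The remaining ligands of the family were at or near the floor of detection. Il4 and Il9 had 0 fragments in all 5 libraries, Il2 had at most 3 fragments and Il21 at most 8 fragments in a library. A count of 0 allows up to 3 fragments in a library, for counting error only.

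Receptor chains that bind IL-3 and IL-13 rose, while their ligands had 0 fragments. Il3ra, which pairs with the chain encoded by Csf2rb, had 37.6, 41.1 and 51.4 FPKM in tumors, against 6.24 and 6.15 FPKM in wild type. Il13ra1, which forms with Il4ra a receptor for IL-4 and IL-13, had 20.5, 16.0 and 19.8 FPKM in tumors, against 2.69 and 2.90 FPKM in wild type. The tumors were close together and far above wild type at both loci, with log2 fold changes of 2.85 for Il3ra (SE 0.22, adjusted p = 0.00433) and 2.79 for Il13ra1 (SE 0.18, adjusted p = 0.00342). Il3 and Il13 had 0 fragments in all libraries. The decoy receptor Il13ra2 overlapped between the groups and did not pass (adjusted p = 0.371).

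The gp130 family shares the signalling chain encoded by Il6st, whose level did not differ beyond the spread between libraries. Il6st had 45.9, 58.65 and 56.9 FPKM in tumors and 44.8 and 51.7 FPKM in wild type, so that the groups overlapped (log2 fold change 0.25, SE 0.18, adjusted p = 0.325). The cytokine-specific chains differed in direction. Il6ra, the IL-6 receptor, had 7.96, 7.11 and 18.1 FPKM in tumors, against 1.00 and 1.33 FPKM in wild type (log2 fold change 3.35, SE 0.54, adjusted p = 0.0143). Il27ra, the IL-27 receptor, had 3.61, 1.86 and 4.21 FPKM in tumors, against 0.317 and 0.327 FPKM in wild type (log2 fold change 3.55, SE 0.56, adjusted p = 0.0138). Palm3 overlaps the Il27ra locus.

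Il11ra1, the receptor of IL-11, was at 30.5, 25.6 and 20.9 FPKM in tumors and at 73.7 and 71.7 FPKM in wild type. Each tumor was under the lower wild-type library, and Il11ra1 fell by 1.45 on the log2 scale (SE 0.20, adjusted p = 0.0101). A near-identical copy, Il11ra2, was listed at 0 in all libraries, so the split of reads between the copies is uncertain, and Ccl27a overlaps the Il11ra1 locus. Il11 itself was at 0.889, 1.23 and 0.991 FPKM in tumors and at 0.556 and 0.461 FPKM in wild type and did not pass (adjusted p = 0.104). Il27, a subunit of IL-27, did not pass the filter on low counts and was not tested. It had 7, 4 and 44 fragments in tumors, against 2 and 0 in wild type, so that tumor library 3 held most of them.

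In the IL-12 and IL-10 families 1 receptor chain rose. Il10ra, the chain specific to the anti-inflammatory cytokine IL-10, had 18.6, 18.9 and 37.7 FPKM in tumors and 1.54 and 2.05 FPKM in wild type, with no overlap (log2 fold change 3.85, SE 0.46, adjusted p = 0.00808). Il10rb, which is shared with other cytokines of the family, had 58.0, 44.7 and 71.7 FPKM in tumors, against 49.7 and 49.6 FPKM in wild type, and did not pass (log2 fold change 0.28, SE 0.23, adjusted p = 0.389). Il10 had 10, 4 and 24 fragments in tumors, against 0 and 1 in wild type. Its fragment ratio of 24.5 had a 95% counting interval of 4.14 to 992, and the log2 fold change, 4.32 (SE 1.42), was short of the threshold (adjusted p = 0.0708).

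Il12rb1, a chain shared by the receptors of IL-12 and IL-23, was at 0.5002, 0.854 and 7.61 FPKM in tumors and at 0.195 and 0.0902 FPKM in wild type. Tumor library 3 was 15.2-fold above tumor library 1, and the log2 fold change, 4.39 (SE 1.61), was short of the threshold in edgeR (adjusted p = 0.0914), though it did in DESeq2 (4.40, adjusted p = 0.00468), and was 2.25 without tumor library 3. Il12rb2, which IL-12 uses and IL-23 does not, was lower in FPKM, at 0.508, 0.411 and 0.960 in tumors and 1.24 and 1.05 in wild type. The fragment counts of Il12rb2 gave a log2 fold change of 0.25 (SE 0.73) that missed the threshold (adjusted p = 0.810). Il20 had 11, 0 and 1 fragments in tumors and 0 and 0 in wild type. The interferon-lambda genes Il28a and Il28b, near-identical copies of each other, had 0 fragments throughout.

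The IL-17 family held the steepest falls. Il17re encodes the chain through which epithelial cells respond to IL-17C and had 1.11, 2.68 and 0.465 FPKM in tumors, against 39.3 and 38.7 FPKM in wild type. The means were 1.42 ± 1.14 FPKM in tumors (SD, n = 3) and 39.0 ± 0.454 FPKM in wild type (SD, n = 2), and Il17re fell by 4.74 on the log2 scale (SE 0.72, adjusted p = 0.0126). Without tumor library 2 it fell by 5.62, and Il25 likewise by 5.62. Its neighbour Il17rc, a chain of the receptor for IL-17A and IL-17F, begins 0.689 kb after it on chromosome 6. Il17rc had 19.9, 35.7 and 27.1 FPKM in tumors and 23.1 and 18.4 FPKM in wild type, so that the groups overlapped (log2 fold change 0.47, SE 0.28, adjusted p = 0.250). Adjacent receptor genes of the same family thus differed in outcome: 1 passed the test and the other did not. The difference between them was not tested.

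The promoter windows of the neighbours are shown because the genes lie so close together. The Il17re window, chr6:113458521-113458770 on the plus strand, holds a TEAD match at 59 bases and a C/EBP match at 201 bases before the RefSeq start. The Il17rc window, chr6:113471205-113471454 on the plus strand, holds a kappaB match at 108 bases before the start, read on the opposite strand. A match is a run of letters and was not tied to binding in these data.
Il17re: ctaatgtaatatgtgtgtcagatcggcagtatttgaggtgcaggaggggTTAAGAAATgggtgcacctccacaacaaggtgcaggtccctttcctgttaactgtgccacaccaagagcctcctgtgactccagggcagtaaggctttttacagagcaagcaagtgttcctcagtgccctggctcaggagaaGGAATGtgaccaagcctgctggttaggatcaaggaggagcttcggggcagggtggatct
Il17rc: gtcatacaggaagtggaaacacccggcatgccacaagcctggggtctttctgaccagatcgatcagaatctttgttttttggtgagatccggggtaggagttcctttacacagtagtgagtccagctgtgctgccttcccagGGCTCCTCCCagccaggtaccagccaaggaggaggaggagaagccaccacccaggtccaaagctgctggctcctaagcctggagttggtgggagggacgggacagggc

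Il25, also called IL-17E, is made by tuft and other epithelial cells and had 1, 2 and 0 fragments in tumors, against 26 and 32 in wild type. That is 0.0820, 0.166 and 0 FPKM in tumors and 2.26 and 3.00 FPKM in wild type. The ratio of wild type to tumor was 30.01 with a 95% counting interval of 9.77 to 150, and Il25 fell by 4.75 on the log2 scale (SE 0.85, adjusted p = 0.0177). Its receptor chain Il17rb was at 0.379, 2.27 and 0.323 FPKM in tumors and at 0.401 and 0.389 FPKM in wild type. Tumor library 2 alone was above wild type, and Il17rb did not pass (log2 fold change 1.36, SE 1.06, adjusted p = 0.357).

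Il17ra, the chain shared by the receptors of the family, had 8.04, 9.89 and 13.7 FPKM in tumors, against 3.24 and 3.62 FPKM in wild type (log2 fold change 1.67, SE 0.28, adjusted p = 0.0153). Il17rd, known also as an inhibitor of FGF signalling, was at 1.72, 2.72 and 1.77 FPKM in tumors and at 4.59 and 4.70 FPKM in wild type, and fell by 1.12 on the log2 scale (SE 0.25, adjusted p = 0.0298). All tumors were lower at Il17rd, but its call was lost without tumor library 1 or 3 (adjusted p = 0.0624 and 0.0517) and with library size alone as the scaling (0.0507). Il17a, Il17f and Il17c had at most 3 fragments in any library. A list of other IL-17 signalling genes had 1 rise among 8 tested loci, where 18.7% of all tested loci rose. The gene was Cxcl1, a chemokine for neutrophils, at 5.49, 6.24 and 7.27 FPKM in tumors and 1.81 and 1.41 FPKM in wild type (log2 fold change 2.02, adjusted p = 0.0176).

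Of the loci outside these families, Il16, which encodes an attractant of CD4+ cells, had 9.45, 6.58 and 11.6 FPKM in tumors and 0.979 and 0.972 FPKM in wild type. It rose by 3.28 on the log2 scale (SE 0.31, adjusted p = 0.00565), and no tumor was near the wild-type values. Il34 encodes a second ligand of the CSF1 receptor of macrophages and had 39.4, 63.9 and 12.72 FPKM in tumors, against 8.57 and 9.74 FPKM in wild type. All tumors were above wild type, tumor library 3 only slightly, and the log2 fold change, 2.199 (SE 0.72), was short of the threshold (adjusted p = 0.0693). It passed with DESeq2 (2.17, adjusted p = 0.00638) and without tumor library 3 (2.61, adjusted p = 0.00941), and Mtss1l overlaps the locus. The other ligand gene of that receptor, Csf1, had 66.2, 86.8 and 154 FPKM in tumors and 10.6 and 11.5 FPKM in wild type (log2 fold change 3.37, adjusted p = 0.0106), so that tumor library 3 was the highest for Csf1 and the lowest among tumors for Il34. A locus that joins Il4i1, an amino acid oxidase gene, with the nuclear pore gene Nup62 was at 23.9, 23.9 and 29.0 FPKM in tumors and 17.3 and 16.7 FPKM in wild type (log2 fold change 0.64, adjusted p = 0.0324), and the table does not separate these genes.

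The 34 untested loci comprised 10 with 0 fragments in every library and 24 with at most 44 fragments in any. Among those at 0 were Il24, Il31 and Il1f10 besides those named above. By role, 9 of 42 receptor loci and 25 of 43 other loci were untested.

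The tumor libraries did not carry the interleukin loci alike. Of the 23 loci that rose, 14 were highest in tumor library 3, 6 in tumor library 2 and 3 in tumor library 1. For the 51 tested interleukin loci these counts were 26, 21 and 4. The split of all tested loci was not counted, so whether this order is particular to interleukin loci was not tested. Tumor library 3 led for the lymphocyte and myeloid receptor chains Il2rg, Il2rb, Il4ra, Il21r, Il6ra and Il10ra and for the untested or uncalled Il27, Il12rb1 and Il18bp. Tumor library 2 led for Il7, Il1rn and Il2ra. At Il1b, Il13ra1 and Il3ra, in contrast, the highest tumor library was 1.21-fold, 1.28-fold and 1.37-fold above the lowest.

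**Figure D4:**
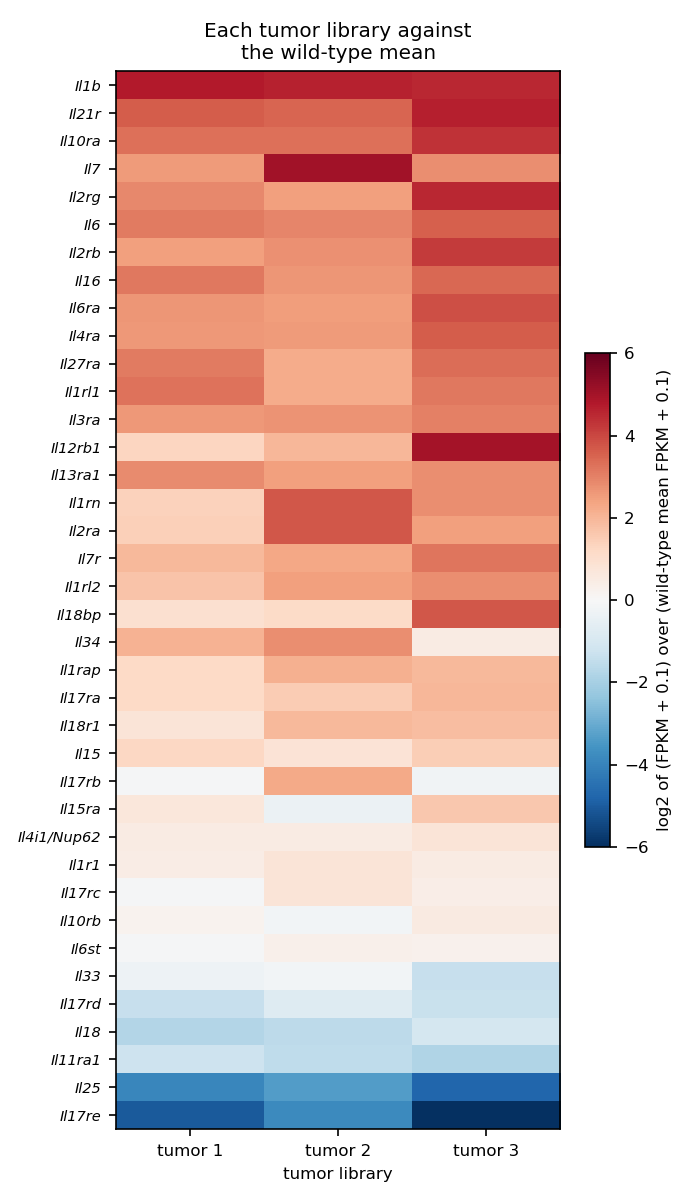
Heat map of each tumor library against the wild-type mean, as log2 of (FPKM + 0.1) over (wild-type mean FPKM + 0.1), for the interleukin-named loci described in the text by rule, ordered by the mean over tumors. Il1b is alike in the 3 tumors, Il7 and Il2ra stand out in tumor library 2, and Il12rb1 and Il18bp stand out in tumor library 3.

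Leukocyte markers were higher in the tumors as well. The pan-leukocyte genes Ptprc, Cd53, Coro1a and Laptm5 all rose, with a median log2 fold change of 3.90, and summed to 418, 356 and 664 FPKM in tumors against 39.1 and 37.1 FPKM in wild type. Macrophage and monocyte genes rose at 8 of 10 loci (3120, 1604 and 7768 FPKM summed in tumors, 496 and 536 FPKM in wild type). T cell genes rose at 8 of 9 loci (32.4, 32.4 and 80.2 FPKM in tumors, 4.22 and 3.48 FPKM in wild type). Tumor library 3 was the highest of the tumors in all these sums. Lyz2 alone gave 2392, 1095 and 6474 FPKM of the macrophage and monocyte sums in tumors, and Ccr2 was highest in tumor library 1. B and plasma cell genes rose at 4 of 5 loci, and their sum was highest in tumor library 1 (230, 110 and 84.8 FPKM in tumors, 4.58 and 5.31 FPKM in wild type). Igj alone gave 208, 98.0 and 67.5 FPKM of these sums in tumors, and Cd79b was highest in tumor library 3. Neutrophil genes rose at 2 of 4 tested loci, NK cell genes at 2 of 6 and dendritic cell genes at 3 of 7. Mast cell and basophil genes had 0 rises and 1 fall among 8. Of all tested loci, 18.7% rose and 15.4% fell, and these shares also stand beside the marker counts below. The neutrophil granule gene Elane had 0 fragments in all libraries, and Mpo had 1, 0 and 0 fragments in tumors and 0 and 0 in wild type. In the regulatory T cell list 0 of 3 loci rose (2.35, 2.96 and 6.17 FPKM summed in tumors, 1.33 and 1.33 FPKM in wild type), with Ctla4 listed at 0 in wild type. Type 2 innate lymphoid genes had 0 rises among 2 tested loci (6.28, 7.41 and 14.0 FPKM in tumors, 15.8 and 16.4 FPKM in wild type).

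Stromal and muscle genes also differed among the libraries. Fibroblast genes rose at 3 of 6 loci, all of them collagen genes, and summed to 3262, 2305 and 4155 FPKM in tumors, against 1722 and 1917 FPKM in wild type. Endothelial genes had 0 rises and 0 falls among 4 loci (87.5, 59.6 and 51.2 FPKM in tumors, 61.4 and 68.9 FPKM in wild type). Skeletal muscle genes passed at 0 of 5 loci but summed to 4866, 285 and 301 FPKM in tumors and to 341 and 322 FPKM in wild type, so that tumor library 1 stood apart. The part of these tissues in the interleukin values was not tested.

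**Figure D5:**
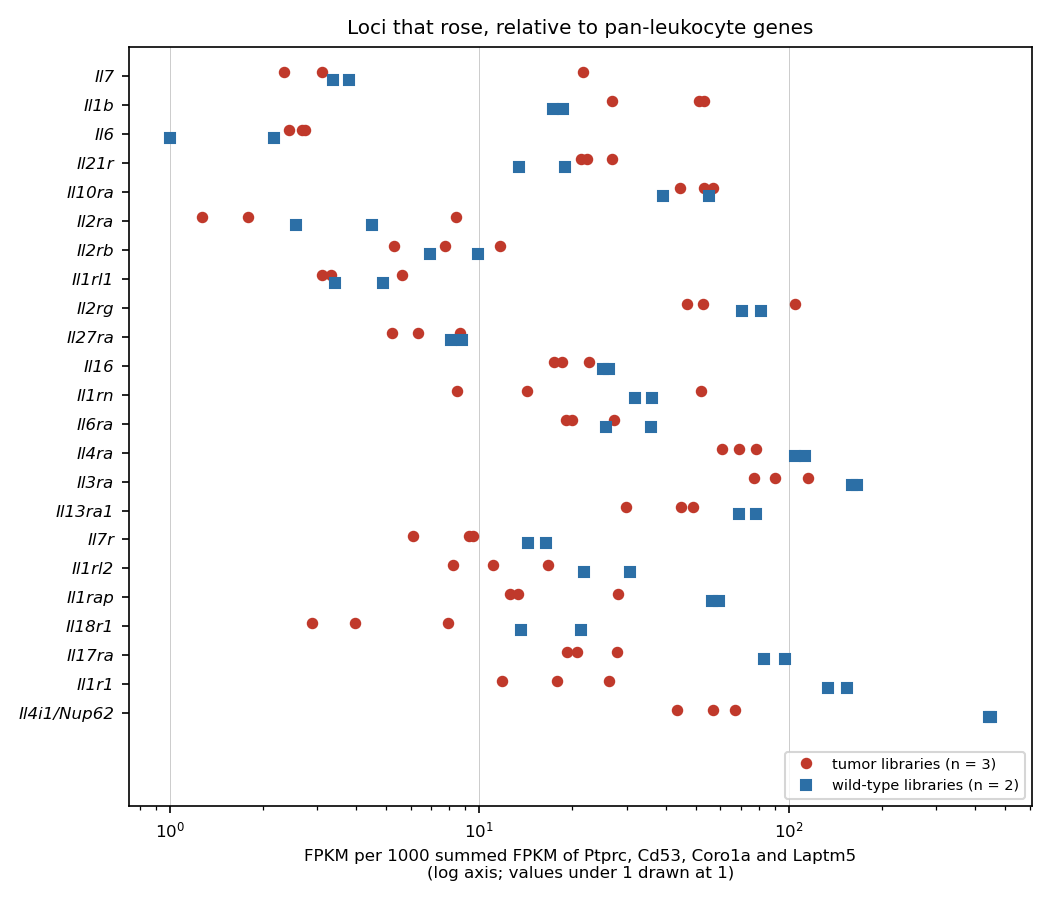
FPKM of the 23 loci that rose per 1000 summed FPKM of Ptprc, Cd53, Coro1a and Laptm5 in the same library (log axis, values under 1 drawn at 1), tumors in red and wild type in blue. Il1b, Il6 and Il21r are higher in all tumors on this scale (Il6 with 1 and 0 fragments in wild type), 11 loci are lower in all tumors, and 9 overlap. Coro1a and Laptm5 carry most of the sum, and division by each leukocyte gene alone was not made.

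To set the rises beside these markers, each locus was also divided by the summed FPKM of the pan-leukocyte genes in its library, a description chosen after the data had been seen. Of the 23 loci that rose, 3 remained above wild type in all tumors on that scale, 11 were below and 9 overlapped. Of the 23 tested loci that did not pass, 20 were below and 3 overlapped, and the 5 loci that fell were below. Of all tested loci, 1.56% were above and 93.3% below. The loci that rose were picked by that rise in the same libraries, so the shares of all loci are not a like comparison for them. Il1b had 51.3, 53.2 and 26.8 FPKM per 1000 leukocyte FPKM in tumors, against 18.7 and 17.4 in wild type. Il21r had 21.3, 22.2 and 26.8 in tumors, against 13.5 and 18.9 in wild type, and Il6 had 2.67, 2.73 and 2.44 in tumors, against 2.16 and 0 in wild type. The wild-type values of Il6 rest on 1 and 0 fragments, so its place on this scale is not settled at this depth. The values of Il10ra overlapped, at 44.5, 53.1 and 56.7 in tumors and 39.4 and 55.15 in wild type. The receptors Il1r1, Il1rap and Il17ra were lower in all tumors per leukocyte signal, although their FPKM was higher. Coro1a (243, 191 and 278 FPKM) and Laptm5 (104, 124 and 280 FPKM) carried most of the leukocyte sums in tumors. Ptprc had 32.2, 19.97 and 47.2 FPKM there. The log2 fold change was 4.41 for Ptprc and 3.29 for Laptm5, against 4.28 for Il21r. Which loci remain above wild type may thus depend on the gene that carries the sum. Division by each leukocyte gene alone was not made. The part of leukocyte content in any of the rises was not tested.

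Markers of ocular tissues were lower in the tumors. Retinal pigment epithelium genes summed to 5.83, 58.7 and 6.87 FPKM in tumors and to 10190 and 10030 FPKM in wild type, with 4 of 5 falling, and tumor library 2 was the highest of the tumors for these genes and for Il17re. Among the other loci that fell, Il11ra1 was highest in tumor library 1 and Il18 in tumor library 3, and the order at Il25 rests on 1, 2 and 0 fragments. Lens genes fell at 2 of 6 loci (4.07, 29.0 and 36.7 FPKM summed in tumors, 138 and 134 FPKM in wild type). Epithelial genes summed to 88.1, 677 and 188 FPKM in tumors, against 624 and 645 FPKM in wild type, with 1 rise (Epcam) and 0 falls among 5 loci. Krt5 and a locus that joins Krt14 with Krt16 carried the sum in tumor library 2, at 399.9 and 246.5 FPKM, whereas Epcam and Krt8 were highest among tumors in tumor library 1. Il7, Il1rn and Il17rb were highest in tumor library 2. The part of these tissues in the changes was not tested.

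Other genes of interleukin signalling were counted from lists that hold no Il symbol. Of 84 such loci 79 were tested, 40 rose and 8 fell, with a median log2 fold change of 1.19, where 18.7% of all tested loci rose and 15.4% fell. Shared receptor chains and related cytokines rose at 14 of 22 loci and fell at 1. The gp130 cytokine Lif had 4.79, 5.82 and 5.05 FPKM in tumors, against 0.172 and 0.156 FPKM in wild type (log2 fold change 4.96, adjusted p = 0.00328). The tumor libraries were alike at Lif and far above wild type. Ifngr1, the interferon-gamma receptor chain, rose by 1.95 on the log2 scale (adjusted p = 0.00580). Ctf1, the gp130 cytokine cardiotrophin-1, fell by 2.82 on the log2 scale (adjusted p = 0.0223), so that ligands of the same shared chain changed in opposite directions.

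JAK, STAT and SOCS genes rose at 11 of 23 loci and fell at 4 (18.7% and 15.4% of all tested loci). Socs3, a feedback inhibitor of gp130 signalling that STAT3 induces, had 35.6, 58.35 and 46.1 FPKM in tumors and 5.61 and 6.24 FPKM in wild type (log2 fold change 3.03, adjusted p = 0.00542). Cish, a feedback inhibitor induced by STAT5, had 6.64, 7.61 and 8.81 FPKM in tumors and 25.8 and 24.8 FPKM in wild type, and fell by 1.67 on the log2 scale (adjusted p = 0.00631). Inhibitors of the same family thus changed in opposite directions. The phosphatase gene Ptpn6 rose (2.39, adjusted p = 0.0120), as did a locus that joins Jak3, the kinase bound to the gamma chain, with Insl3 (1.86, adjusted p = 0.0127). Pias3 and Socs7 fell by 0.80 and 0.65 on the log2 scale (adjusted p = 0.0236 and 0.0320).

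Genes that process IL-1 family cytokines or act below their receptors rose at 14 of 26 loci and fell at 3 (18.7% and 15.4% of all tested loci). On the log2 scale the DNA sensor Aim2 rose by 4.06 (adjusted p = 0.00547), the inflammatory caspase Casp4 by 4.22 (adjusted p = 0.00799) and the receptor-proximal kinase Irak4 by 1.72 (adjusted p = 0.00882). Casp1, which cuts the precursors of IL-1 beta and IL-18, had 13.3, 14.99 and 42.7 FPKM in tumors and 0.854 and 1.60 FPKM in wild type (log2 fold change 4.32, adjusted p = 0.0176). The genes that fell were the kinase Irak2 (-1.11, adjusted p = 0.00864), the inhibitor Tollip (-1.16, adjusted p = 0.0117) and the kinase partner Tab1 (-0.64, adjusted p = 0.0394). Ifng had 3, 1 and 29 fragments in tumors and was listed at 0 in wild type, with tumor library 3 the highest as for Il12rb1, Il27 and Il18bp.

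Promoters were searched on both strands in the 250 bases before each RefSeq start, for 68 of the 85 loci (83 windows). The kappaB letters, GGGA followed after 4 bases by CC, were in 19 windows (22.9%), against 17.6% of 32851 windows of all genes, and the C/EBP letters TTNNGNAAT in 15 (18.1%, against 10.2%). AP-1 letters TGANTCA were in 14 windows (16.9%, against 6.75%), and TEAD letters GGAATG, of the factors that YAP and TAZ bind, in 13 (15.7%, against 12.6%). GAS letters TTCNNNGAA were in 8 windows (9.64%, against 7.02%) and the ISRE letters, GAAA repeated after a gap of 2 bases, in 2 (2.41%, against 2.98%). Of 26 windows of loci that rose, 9 held the kappaB letters, 7 the C/EBP, 4 the TEAD, 3 the AP-1, 2 the GAS and 0 the ISRE letters. Of 5 windows, from 4 loci that fell, 2 held the TEAD letters and 1 the C/EBP letters. The kappaB, AP-1, GAS and ISRE letters were in 0 of these 5, too few windows to set against the shares of all genes. These shares describe letters in a window, and no test was made on them.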

How the data were processed

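RNA-seq of tumor (3) and wild-type (2) libraries was analysed from the deposited table per replicate. The tools named in the submitters' processing notes are Cufflinks 2.2.1, TopHat2 2.0.9 and Cuffdiff, with build mm10. The sources used here give no annotation, strand setting or filter. Per the file headers, the authors deposited an estimated count of fragments, unscaled, and an FPKM that follows their scaling between libraries, for each locus and library. Of the 425 count values of interleukin-named loci, 420 were whole, and all were rounded before testing. The deposited group FPKM was within 1% of the replicate mean at all interleukin loci above 1 FPKM and was not used further.

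The 1627 loci without a gene name, 1.52% to 4.37% of fragments per library, were left out. The 23141 named loci entered edgeR 4.0.16 (R 4.3.3). The filter filterByExpr at its minimum count of 10 kept 15241, libraries were scaled by TMM, and tumors were set against wild type by the two-sided quasi-likelihood test on the 5 libraries together. An adjusted p under 0.05 counts as a change. Adjusted p-values are edgeR's unless another tool is named. An SE is the log2 fold change over the square root of F. The code was tested on simulated data.

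Replicates are numbered from 0 in the table and from 1 in the labels, so a number only names a library. Coordinates are the table's locus spans on mm10, 1-based. Of the loci, 10 overlap another named locus. Promoter sequences are RefSeq's.

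Alternatives were DESeq2 1.42.0, library size alone as scaling, no filter, limma 3.58.1 on log2(FPKM + 1) and log2(FPKM + 0.1), and each library left out. Members and lists were chosen with earlier results of these data known. Interleukin loci are named if they passed the test, reached a mean of 5 FPKM in a group, or stood out in 1 tumor library at 1 FPKM or more. From each signalling list, the up to 3 genes with the smallest p in each direction are named. A gene that this rule names is not reported here. Marker lists are given by counts and sums. Other genes named were chosen after their values were seen.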

Additional observations from a re-analysis of the deposited data

How the results depend on the processing

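The 38 tested interleukin-named loci described by the rule kept the sign of their change in every alternative run that gave a value for them. Il17rb had a value in 9 runs and Il6 and Il25 in 10, against 12 for the others. No fit without a tumor library gave a value for Il17rb, so its sign there is not known. Il20 and Il27 did not pass the filter of the main fit, and their values without the filter are not given. The number that rose was 23 and lay between 19 (limma on log2(FPKM + 1)) and 29 (DESeq2) outside the leave-one-out fits. Of the 23, DESeq2 called all 23 and limma on log2(FPKM + 1) 18. Leaving out 1 library in turn gave 0 to 25 rises and 0 to 5 falls. Both zeros came from leaving out either wild-type library in edgeR, where 25 and 24 interleukin loci had an unadjusted p under 0.05 (4085 and 3996 of all loci); the lone wild-type library is then assumed to vary like the tumors. With DESeq2 on those libraries 20 and 19 rose, and 2 and 2 fell, against 5 in the full edgeR fit. For the signalling lists, leave-one-out gave 0 to 43 rises and 0 to 9 falls, with 5 falls without tumor library 1 against 8 in the full fit. DESeq2 without either wild-type library gave 31 and 31 rises and 4 and 4 falls. Il15 also passed without tumor library 2 (adjusted p = 0.0473) and with limma. No paired analysis was possible because replicate numbers run from 0 in the table and from 1 in the labels, and nothing ties them; the replicate block was not run. With 2 wild-type libraries, the spread of that group rests on 1 difference. Loci that did not reach about 10 fragments in more than 1 library, such as Il27, were beyond the reach of the main test.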
